A study of Homo sapiens with 8 samples.

Results

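The nuclear-encoded respiratory chain genes described here are the subunit genes of complexes I to IV and of the ATP synthase, complex V, that carry the usual NDUF, SDH, UQCR, COX and ATP5 symbols. Members were chosen by symbol and by a mean of at least 100 normalised read counts over all 8 libraries. All 74 symbols that matched passed that level, out of 55737 named genes in the table and 19393 genes tested. They comprise 37 genes of complex I (7 for the conserved core and 30 for accessory subunits), 4 of complex II, 8 of complex III, 10 of complex IV and 15 of complex V. The lowest mean among them, 733 for NDUFV2, lies far above the threshold, so the level excluded no gene.

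The libraries came from LNCaP, an established human prostate cancer line that depends on the androgen receptor. Treatments of 4 h were compared in 4 groups of 2 libraries, namely control, 40 µM OSMI-2, 0.5 µM AT7519, and the combination of both at those doses. OSMI-2 is an inhibitor of OGT, which adds the sugar O-GlcNAc to proteins of the nucleus and cytoplasm. AT7519 inhibits several cyclin-dependent kinases, among them CDK9, which releases paused RNA polymerase II. These doses come from the design text of the series, while the treatment protocol gives the same figures in mM. All groups are the same line, what the control cells received is not stated further, and nothing in the labels says that the 2 libraries of a group came from separate cultures. The p-values below therefore measure the spread between libraries, which may be technical.

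The respiratory chain passes electrons from NADH (complex I) and succinate (complex II) through complexes III and IV to oxygen, and the ATP synthase uses the resulting proton gradient to make ATP. Most subunits are encoded in the nucleus, translated in the cytosol and imported, while 13 are encoded by mitochondrial DNA and transcribed by a separate RNA polymerase, POLRMT. Nuclear subunit genes are short housekeeping genes whose promoters are known for sites of NRF1, of the ETS factor GABP and of YY1, and many of their mRNAs are long-lived.

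RefSeq promoters (GRCh38.p14, from 250 bases before to 50 after the start) were found for 61 of the 74 members, 73 promoters in all. The 150 bases upstream of the start are shown for 6 members that are named in the results below. They are SDHD and ATP5C1, whose promoters hold an NRF1 motif and which rose less than most members, NDUFB10 and COX7C with the THAP11-HCFC1 element, NDUFV2 with the largest rise and NDUFV3 with the only fall. Capitals mark a match on either strand to the ETS motif CCGGAAG, the YY1 motif AAGATGGCG, the palindromic NRF1 motif (the capitals of ATP5C1) or the THAP11-HCFC1 element (the capitals of NDUFB10, with any base at the 2 places where the copies in COX7C differ from it or from each other). HCFC1 is a chromatin-associated cofactor that OGT binds and cleaves. All 6 lie on the plus strand, at chr11:112086723-112086872, chr10:7788027-7788176, chr16:1959388-1959537, chr5:86617791-86617940, chr18:9102549-9102698 and chr21:42893159-42893308 in that order.
SDHD: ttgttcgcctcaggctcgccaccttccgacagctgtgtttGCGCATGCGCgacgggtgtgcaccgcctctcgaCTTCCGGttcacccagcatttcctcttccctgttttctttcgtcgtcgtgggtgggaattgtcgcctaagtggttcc
ATP5C1: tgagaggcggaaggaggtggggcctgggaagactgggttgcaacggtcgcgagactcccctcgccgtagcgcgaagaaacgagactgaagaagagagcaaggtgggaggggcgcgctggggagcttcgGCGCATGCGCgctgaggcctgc
NDUFB10: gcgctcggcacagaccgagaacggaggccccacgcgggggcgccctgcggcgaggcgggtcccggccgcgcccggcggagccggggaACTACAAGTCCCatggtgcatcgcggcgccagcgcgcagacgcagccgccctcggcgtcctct
COX7C: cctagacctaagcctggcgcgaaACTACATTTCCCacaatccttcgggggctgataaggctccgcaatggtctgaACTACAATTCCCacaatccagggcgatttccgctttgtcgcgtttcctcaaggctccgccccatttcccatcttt
NDUFV2: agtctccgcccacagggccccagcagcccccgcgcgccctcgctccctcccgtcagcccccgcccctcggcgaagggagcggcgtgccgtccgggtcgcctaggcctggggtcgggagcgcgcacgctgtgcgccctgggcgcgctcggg
NDUFV3: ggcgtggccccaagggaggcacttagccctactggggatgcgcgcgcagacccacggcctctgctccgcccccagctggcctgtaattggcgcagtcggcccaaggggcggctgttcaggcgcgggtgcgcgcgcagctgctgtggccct
No motif of the 4 lies in the stretches of NDUFV2 and NDUFV3. The SDHD stretch holds the NRF1 motif and, downstream of it, the reverse complement of the ETS motif. The COX7C stretch holds the THAP11-HCFC1 element in 2 places.

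Reads assigned to genes ranged from 60152710 to 154367238 per library, and log2 values of 2 libraries of a group correlated across 19393 genes with r from 0.9881 to 0.9938. All 10 luminal prostate markers, such as KLK3, passed the level filter, with summed counts from 431224 to 532438. Of 3 basal markers 1 passed (sums of 41.8 to 106), of 3 endothelial markers 1 passed, VWF (1132 to 1506), with CDH5 and KDR at 0 in every library, and of 4 blood markers 0 passed (0 to 7.46). Of 5 fibroblast markers 3 passed. Their sums, 2575 and 2580 in the controls, were 2260 and 2994 with OSMI-2, 3264 and 3933 for AT7519 and 3631 and 4373 for the combination, while COL1A2 was at or near 0; their part in the results was not tested. In bulk samples, fewer cells of a kind and less RNA per cell cannot be told apart.

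AT7519 against control compares libraries of cells given AT7519 alone for 4 h with the controls. On the deposited scale 73 of 74 members rose and NDUFV3 alone fell (limma, adjusted p below 0.05, adjusted over all 19393 tested genes). The background was 26.0% of tested genes higher and 27.2% lower, and 38.2% and 29.8% among the 10061 genes with a mean at least that of the lowest member. The median log2 change was 0.74, or 1.67-fold, against a median of -0.004 over all tested genes. The middle 50% of members lay between 0.64 and 0.84. Values are relative to the scale chosen. Scaled to equal totals the members' median was 0.39, and scaled to equal sums of the 13 mitochondrial mRNAs it turned to -0.18, with 3 members called higher (NDUFA11, NDUFA9 and NDUFV2) and 22 lower. Those scales moved the median of all genes to -0.34 and -0.91, and the members' median stood 0.73 to 0.74 above that of all genes on each of the 5 scales tried. Directions below are those on the deposited scale. Leaving out any library left the counts at 73 and 1.

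**Figure D1:**
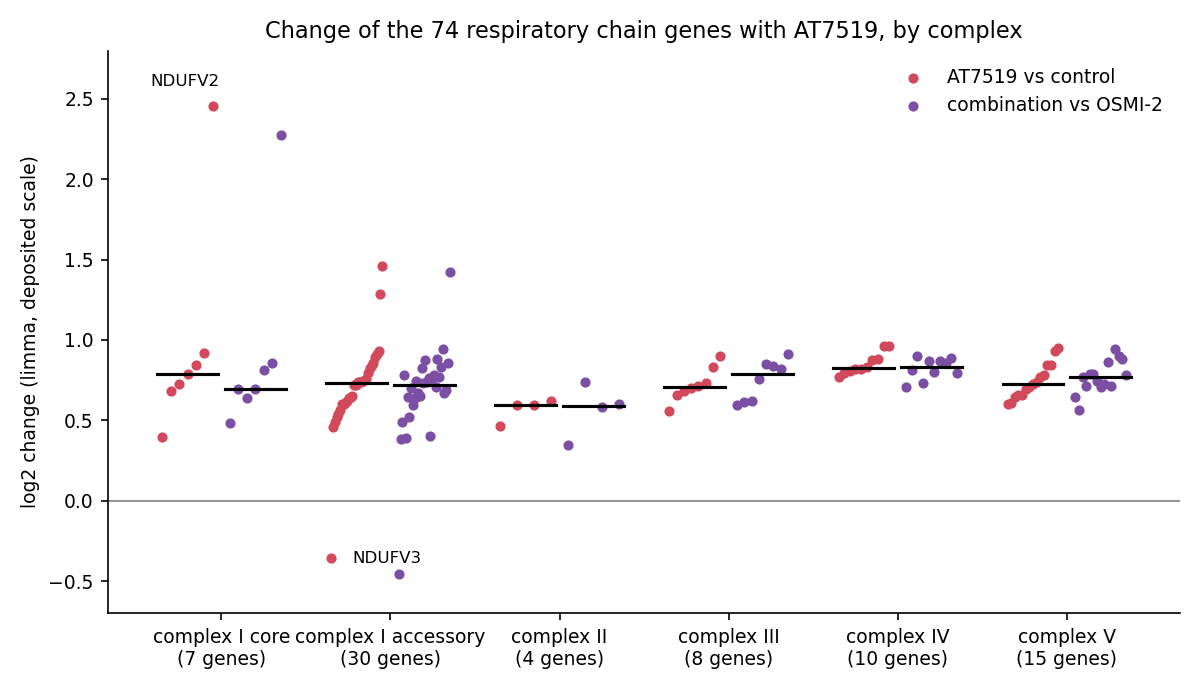
Log2 change (y axis, limma, deposited scale) of each of the 74 members, grouped by complex (x axis), for AT7519 vs control (red) and combination vs OSMI-2 (purple), which share no library; points are genes and black bars are medians. Complex medians for AT7519 vs control lie between 0.60 and 0.82, with NDUFV2 far above and NDUFV3 below 0; scaled to equal mitochondrial mRNAs the median over all members is -0.18 and -0.11 in these comparisons.

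In complex I, the entry point for electrons from NADH, all 7 core genes rose with a median of 0.79. NDUFV1, which encodes the subunit that binds NADH and FMN, had 18397 and 18219 normalised counts in the controls and 31463 and 34406 with AT7519. Both treated libraries exceeded both controls (log2 change 0.85, SE 0.08, adjusted p = 8.23e-07). NDUFS1, which carries iron-sulfur clusters of the electron-input arm, had the smallest called rise of all members, from 21168 and 22323 to 29158 and 28109 (0.40, SE 0.07), a rise lost on the scale of equal totals (0.054, adjusted p = 0.542). NDUFS7 and NDUFS8, which lie along the path to ubiquinone, rose by 0.92 and 0.73. Of the accessory genes 29 of 30 rose, with a median of 0.73. NDUFA4, originally described in complex I and now assigned to complex IV, went from 31910 and 31540 to 58044 and 59820, a rise of 0.89. All counts and medians here keep it among the accessory genes of complex I and not in complex IV.

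NDUFV2 and NDUFV3 encode subunits of the same NADH-oxidising module and were the extremes of the whole set. NDUFV2, an iron-sulfur core subunit, had 255 and 197 counts in the controls and 237 and 259 with OSMI-2. AT7519 libraries had 1060 and 1439 and combination libraries 1319 and 1100. The groups with AT7519 did not overlap those without it, and the rise was 5.49-fold (2.46, SE 0.18, adjusted p = 1.80e-07). NDUFV3, an accessory subunit, had 8186 and 8928 counts in the controls and 7657 and 8124 with OSMI-2. AT7519 libraries had 6675 and 6668 and combination libraries 5715 and 5803. Every library with AT7519 was below every library without it, and the fall with AT7519 was 1.28-fold (-0.36, SE 0.08, adjusted p = 0.00183). The fall of NDUFV3 and the rise of NDUFV2 held on all 5 scales.

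NDUFV2 is also the member with the fewest counts. The 6 lowest members are NDUFV2, NDUFA13, NDUFA11, NDUFA9, NDUFB8 and NDUFC2. In GENCODE 29, which was matched by symbol only, the last 5 overlap another protein-coding gene on their own strand, and NDUFV2 overlaps a processed transcript on its strand and antisense genes. Reads of overlapping genes can be dropped or shared at counting, so levels and changes of these genes are uncertain. NDUFA11 rose by 1.46 (from 674 and 595 to 1679 and 1818) and NDUFA9, an accessory subunit near the ubiquinone site, by 1.29 (from 767 and 815 to 1867 and 2005). Counted without the 16 members that have such a protein-coding overlap, 57 of 58 rose with AT7519 and 1 fell, with a median of 0.72. ATP5J2, COX8A and SDHD, given below as extremes of their complexes, are among those 16 and carry the same uncertainty.

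Complex II, the succinate dehydrogenase that is also an enzyme of the citric acid cycle and has no mitochondrially encoded subunit, had the lowest median, 0.60. Its genes rose 4 of 4. SDHA, the flavoprotein, had 11808 and 11598 counts in the controls and 18109 and 17320 with AT7519 (0.60). SDHB, the iron-sulfur subunit, went from 5393 and 5761 to 8581 and 8545 (0.62). SDHC, a membrane anchor, went from 26801 and 26326 to 40079 and 40158 (0.59). These 3 genes changed by nearly the same factor, with no overlap between the groups. SDHD, the other anchor, rose from 11709 and 12189 to 16384 and 16652 (0.47, SE 0.08, adjusted p = 0.000129), a rise lost on the scale of equal totals (0.12, adjusted p = 0.183). Among complex III genes, 8 of 8 rose with a median of 0.71. UQCRQ, a small subunit beside cytochrome b, led with 22702 and 22865 counts in the controls and 43807 and 41384 with AT7519 (0.90). UQCRC2, a core protein, was lowest at 0.56, the other core protein UQCRC1 rose by 0.66, and UQCRFS1, the Rieske iron-sulfur protein, rose by 0.68.

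Complex IV, cytochrome c oxidase, had the highest median, 0.82, with 10 of 10 genes higher and a narrow range from 0.77 for COX5A to 0.96 for COX8A. COX8A, its smallest subunit, had 4913 and 4687 counts in the controls and 9177 and 9538 with AT7519, which did not overlap. COX4I1, the largest nuclear-encoded subunit, rose by 0.87, COX5B by 0.83, COX7C by 0.82 and COX6C by 0.81. For the ATP synthase 15 of 15 genes rose, with a median of 0.73. ATP5B and ATP5A1, genes of its catalytic F1 part, rose by 0.71 and 0.66. Counts went from 139671 and 144368 to 232950 and 230475 for ATP5B and from 80963 and 81916 to 128757 and 127820 for ATP5A1. ATP5J2, of the membrane part, had the largest rise at 0.95 and ATP5C1, the rotating central stalk, the smallest at 0.60. ATP5E, of the same stalk, rose by 0.84. Differences between the medians of complexes were not tested.

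**Figure D2:**
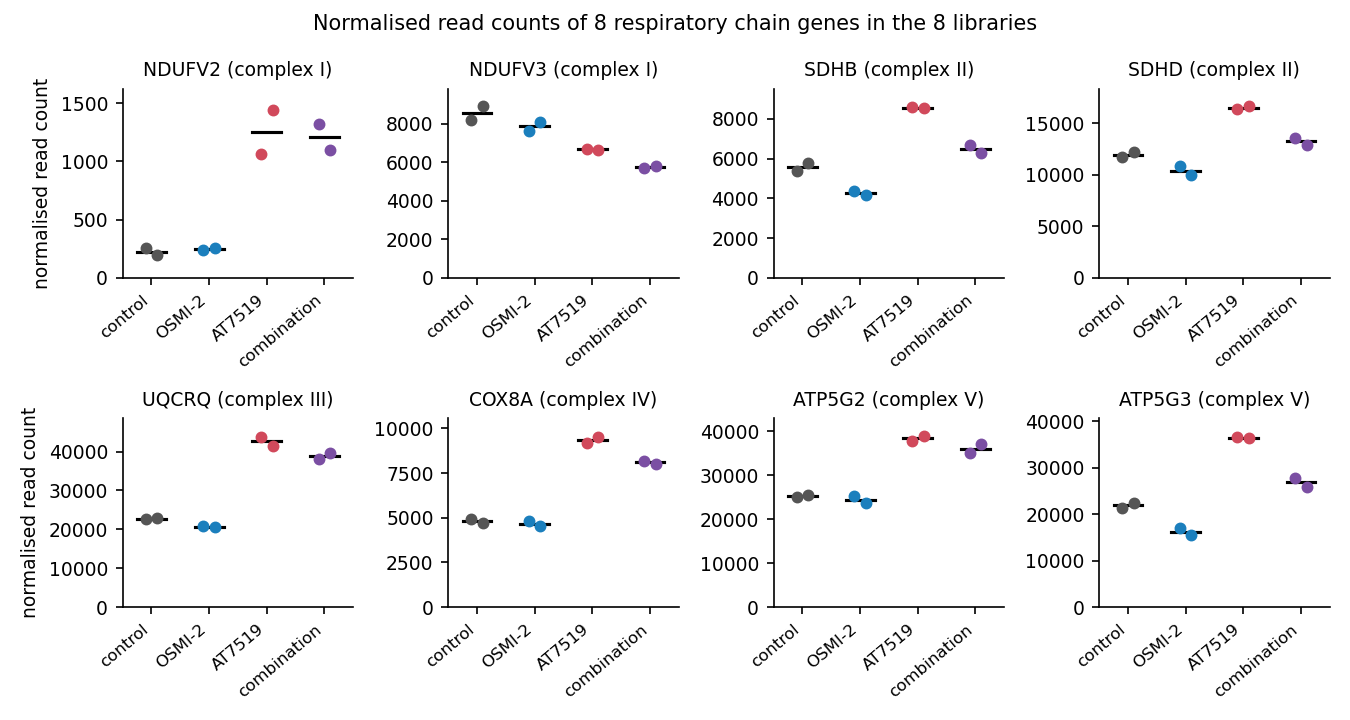
Normalised read counts (y axis, from 0) of 8 members in the 8 libraries, grouped by treatment (x axis); points are libraries and bars are means of 2. Of these genes all but NDUFV3 are higher in the AT7519 libraries than in the controls on the deposited scale, and ATP5G3 and SDHB show lower values with OSMI-2 both without and with AT7519. Scaled to equal mitochondrial mRNAs, the AT7519 changes of SDHB, SDHD, UQCRQ, ATP5G2 and ATP5G3 turn below 0.

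The change with AT7519 on an OSMI-2 background, combination against OSMI-2, rests on 4 other libraries. Here 72 of 74 members rose, with NDUFV3 again the only fall (-0.45, SE 0.08, adjusted p = 0.000265), against a background of 27.5% higher and 27.3% lower. The median was 0.75, and -0.11 scaled to equal mitochondrial mRNAs. NDUFA13 was the member that was not called, at 0.40 (SE 0.17, adjusted p = 0.0558). It was called on equal upper quartiles (0.48, adjusted p = 0.0292) and without OSMI-2 replicate 2 (0.61, adjusted p = 0.0196). Without AT7519 replicate 1 or 2, which enter only the estimate of spread, it was called at the same change (adjusted p = 0.0388 and 0.0398). Across the 74 members the 2 changes correlated with r = 0.924 and rho = 0.745, given as a description: the genes share libraries within each comparison, and NDUFV2 carries weight in r. All 72 genes higher here were also higher in AT7519 against control, but calls in both use the same spread per gene from all 8 libraries. Across all 19393 tested genes r was 0.846 and rho 0.837.

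Compared with control, the combination raised 70 members and lowered NDUFV3 (1.48-fold, -0.57, SE 0.08), where the background was 26.3% higher and 27.6% lower. The median was 0.54, and -0.44 scaled to equal mitochondrial mRNAs. NDUFB10, NDUFA8 and SDHD were not called, at 0.14, 0.14 and 0.15 (adjusted p = 0.140, 0.139 and 0.113). On equal upper quartiles these 3 were called higher, at 0.28, 0.28 and 0.29 (adjusted p = 0.00516, 0.00577 and 0.00406). SDHD counts were 13549 and 12950 with the combination, above 11709 and 12189 in the controls. UQCRFS1 was called at 0.26 (adjusted p = 0.0381), but not without control replicate 1, control replicate 2 or combination replicate 1 (adjusted p from 0.0568 to 0.233). Its call was also lost without a filter (adjusted p = 0.0804), in limma without a trend (adjusted p = 0.154) and on equal totals, where the change itself was 0.0011 (adjusted p = 0.993). This comparison shares its controls with AT7519 against control.

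OSMI-2 against control compares libraries of cells given OSMI-2 alone with the controls. On the deposited scale 11 of 74 members fell and 0 rose, against a background of 2.38% lower and 0.645% higher, and 4.43% lower among genes at least as abundant as the lowest member. The median was -0.18, against -0.02 over all tested genes, and -0.11 to -0.31 on the other scales. Those that fell were NDUFS6, NDUFB3, NDUFB4 and NDUFB10 of complex I, SDHB, UQCRB, and ATP5C1, ATP5H, ATP5J, ATP5B and ATP5G3 of the ATP synthase; complex IV had 0 of 10 called. No member was called higher by limma, edgeR or DESeq2. An unadjusted p below 0.05 was found for 40 of 74 members, all with values below 0. Over all tested genes 3450 of 19393 had such a p, in either direction, and 10281 had values below 0. Across 13310 tested protein-coding genes the change with OSMI-2 correlated with log10 mean level (r = -0.219, rho = -0.24). Across the 74 members these were r = -0.523 and rho = -0.377. Median means were 13690 counts for members and 2444 for those 13310 genes, and the part of level was not tested. The count of falls was 0 when either control replicate 2 or OSMI-2 replicate 2 was left out. It was 1 when OSMI-2 replicate 1 was left out and 4 when control replicate 1 was. It was 2 on the scales of equal totals and of equal upper quartiles (ATP5G3 and NDUFS6), 13 in edgeR, 22 in DESeq2 and 0 in limma without a trend.

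NDUFS6, a zinc-binding accessory subunit added late in assembly, had the largest fall. It had 7135 and 7629 counts in the controls and 5267 and 5490 with OSMI-2, so the groups were apart (-0.46, SE 0.08, adjusted p = 0.0146). SDHB fell from 5393 and 5761 to 4387 and 4179 (-0.38, SE 0.08, adjusted p = 0.0264). NDUFB4 fell from 33187 and 37906 to 26634 and 27826 (-0.38, adjusted p = 0.0240). In each of these genes the lower control still exceeded the higher OSMI-2 library. UQCRFS1 had a change of -0.36 that was not called (adjusted p = 0.0642).

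The c-ring of the ATP synthase, the rotor turned by protons, is encoded by 3 genes, ATP5G1, ATP5G2 and ATP5G3, which differ in their import signals and give the same mature protein. ATP5G3 had 21286 and 22537 counts in the controls and 17009 and 15453 with OSMI-2. AT7519 libraries had 36618 and 36370 and combination libraries 27754 and 25969. It was lower with OSMI-2 in both settings, by 1.35-fold against control (-0.43, SE 0.08, adjusted p = 0.0118) and by 1.36-fold against AT7519 (-0.44, SE 0.08, adjusted p = 0.00130). ATP5G2 had 25038 and 25404 counts in the controls and 25260 and 23624 with OSMI-2, which overlapped (-0.05, SE 0.07, adjusted p = 0.808). With the combination ATP5G2 changed by -0.09 against AT7519 (SE 0.07, adjusted p = 0.399). ATP5G1 lay between, at -0.22 (adjusted p = 0.196) and -0.28 (adjusted p = 0.0337). The differences between the 3 genes were not tested. All 3 rose with AT7519 alone, by 0.78 for ATP5G1, 0.61 for ATP5G2 and 0.74 for ATP5G3.

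When OSMI-2 was added to AT7519, 22 of 74 members fell and 0 rose (combination against AT7519), with a background of 12.5% lower and 7.21% higher. Among genes at least as abundant as the lowest member the share lower was 21.6%, not far from the members' own. The median was -0.19, against -0.02 over all tested genes, and between -0.09 and -0.25 on the other scales. Across the 13310 tested protein-coding genes this change correlated with log10 mean level (r = -0.257, rho = -0.248). Across the 74 members these were r = 0.0186 and rho = 0.125, and the part of level was not tested. Leaving out combination replicate 2 gave a count of 4, AT7519 replicate 1 a count of 7 and AT7519 replicate 2 a count of 11, and it was 6 and 5 on the scales of equal totals and equal upper quartiles. The 5 genes called on all 5 scales tried were ATP5G3, SDHB, SDHD, NDUFB10 and UQCRFS1. In limma without a trend the count was 0, so these genes were not called there either.

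By complex, 9 of 37 genes fell in complex I, 2 of 4 in complex II, 4 of 8 in complex III, 2 of 10 in complex IV and 5 of 15 in complex V. SDHB had 8581 and 8545 counts with AT7519 and 6678 and 6299 with the combination (-0.40, SE 0.08, adjusted p = 0.00421). UQCRFS1 went from 21086 and 17315 to 15017 and 13504 (-0.42, SE 0.10, adjusted p = 0.00877), with AT7519 libraries that lay apart from each other. SDHD fell by 0.32 and NDUFB10 by 0.35. None of these groups overlapped. NDUFA9 fell by 0.41 here while its change with OSMI-2 alone was 0.02; its interaction was not called (-0.43, SE 0.16, adjusted p = 0.331). The complex IV genes that fell were COX6B1 (-0.27) and COX7B (-0.26).

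The changes in OSMI-2 against control and combination against AT7519 share no library. Their calls rest on the same estimate of spread per gene, made from all 8 libraries, so an overlap of calls is not independent. The lower calls overlapped in 7 genes, 63.6% of the 11 and 31.8% of the 22: ATP5B, ATP5C1, ATP5G3, NDUFB10, NDUFB3, NDUFB4 and SDHB. Over all tested genes 397 lower calls were shared, 86.1% of 461 and 16.4% of 2416. Across the 74 members the 2 changes correlated with r = 0.554 and rho = 0.531, given as a description, and across all tested genes with r = 0.351 and rho = 0.451. Values were below 0 in both for 69 of the 74 members and for 7330 of all 19393 tested genes. The direct test of the difference, the interaction of both drugs, called 0 of 74 members in limma, edgeR and DESeq2, where the background was 0.0619% higher and 0.975% lower. By limma 2 members had an unadjusted p below 0.05, NDUFA9 and NDUFS6 (0.26), against 1962 of 19393 tested genes. For 69 members the 95% interval of the interaction lay within 0.5 of 0 on the log2 scale, and the median half-width of the 74 intervals was 0.234.

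**Figure D3:**
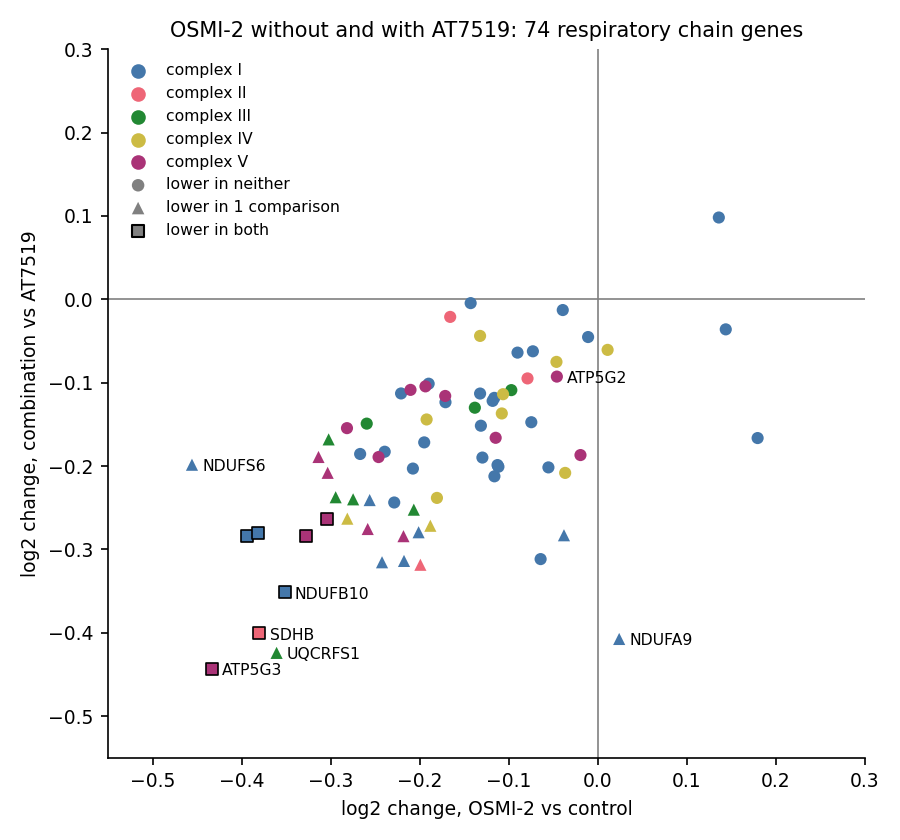
Log2 change of the 74 members with OSMI-2 vs control (x axis) and with combination vs AT7519 (y axis), coloured by complex, on the deposited scale; circles are genes called lower in neither comparison, triangles in 1 and squares in both. For 69 members both values are below 0, as for 7330 of all 19393 tested genes. ATP5G3 and SDHB lie near the lower left and NDUFA9 low on the y axis alone.

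Of the mitochondrial mRNAs, which encode the remaining subunits of complexes I, III, IV and V, all 13 rose with AT7519 against control, with a median of 0.91 and folds from 1.74 for MT-ND6 to 2.01 for MT-ND3. With OSMI-2 limma called 0 of 13 (median 0.12), with MT-ND4L at 0.23 (adjusted p = 0.144) and MT-ND6, the gene on the light strand, at -0.29 (adjusted p = 0.116). Added to AT7519, OSMI-2 again gave 0 of 13 called and a median of 0.07.

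As shares of gene reads, which do not rest on the size factors, the 74 members took 1.35% ± 0.011 (SD, n = 2) in the controls and 1.23% ± 0.034 with OSMI-2. AT7519 libraries gave 1.76% ± 0.027 and combination libraries 1.64% ± 0.044. The controls lay below all libraries with AT7519 and above both OSMI-2 libraries. The 13 mitochondrial mRNAs took 4.57% ± 0.17, 5.26% ± 0.38, 6.80% ± 0.34 and 7.53% ± 0.28 in the same order. Nuclear reads per mitochondrial read were 0.296 ± 0.013 in the controls, 0.235 ± 0.023 with OSMI-2, 0.259 ± 0.017 for AT7519 and 0.218 ± 0.0023 for the combination. Both controls were above all 6 treated libraries. With 2 libraries against 2, an exact permutation test cannot give a two-sided p below 0.333, so no test of these ratios was made.

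**Figure D4:**
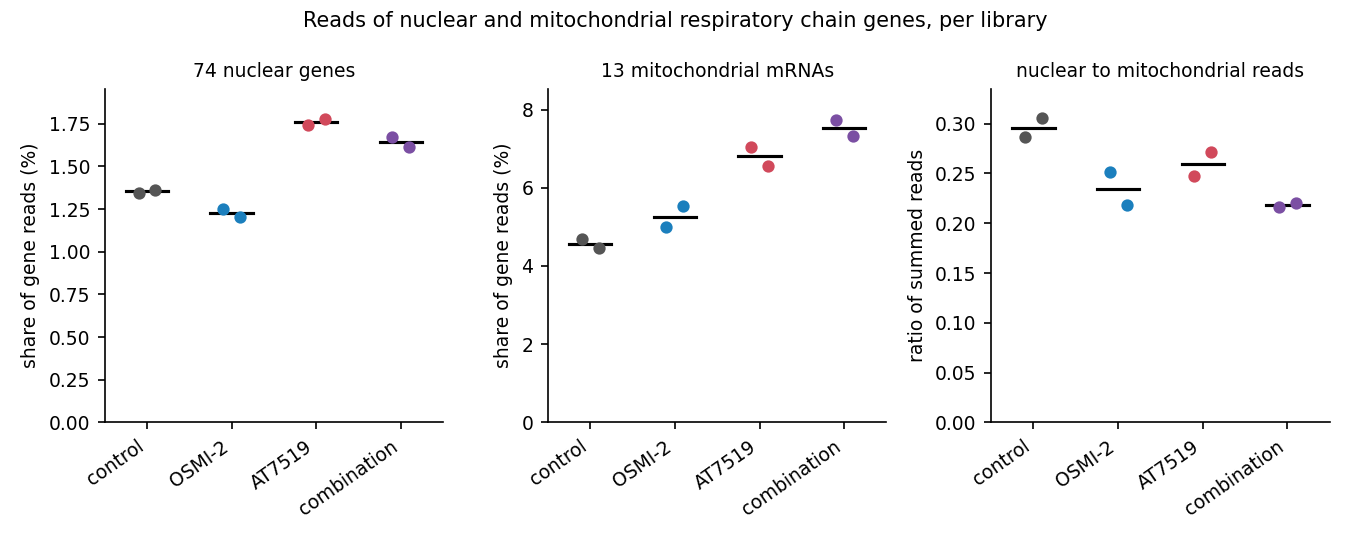
Share of gene reads (y axes, %) taken by the 74 nuclear members and by the 13 mitochondrial mRNAs, and the ratio of their reads, in each library by treatment; points are libraries and bars are means of 2. Both shares are higher with AT7519 than in the controls, and the mean ratio is 0.296 in the controls and 0.218 with the combination.

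Related gene lists were set beside the members by the same fit. Of all tested genes, 26.0% rose and 27.2% fell with AT7519. With OSMI-2 alone 2.38% fell and 0.645% rose, and when it was added to AT7519 12.5% fell and 7.21% rose. Among genes at least as abundant as the lowest member, 38.2% rose and 29.8% fell with AT7519. The shares lower there were 4.43% with OSMI-2 and 21.6% with its addition to AT7519. Of 10 tested subunit genes outside the symbol pattern, 8 rose with AT7519 and 0 fell, among them CYC1, cytochrome c1 of complex III (0.85), and NDUFAB1, the mitochondrial acyl carrier protein (0.80). CYCS, cytochrome c, rose with AT7519 (0.63) and fell with OSMI-2 (-0.58, adjusted p = 0.00575) and with its addition to AT7519 (-0.52, adjusted p = 0.000839). Its counts were 51449 and 61858 in the controls and 37744 and 37779 with OSMI-2. NDUFA4L2, a paralogue of NDUFA4 induced by hypoxia, was the member of this list that rose with OSMI-2 (1.20, adjusted p = 0.0141).

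Of 43 tested assembly factor genes 28 rose with AT7519 and 0 fell (median 0.43), led by NDUFAF5 (1.12), which modifies a complex I subunit. When OSMI-2 was added to AT7519, 16 of 43 fell and 0 rose, with the largest falls in COX10 (-0.89), which acts in heme A synthesis, and SCO2 (-0.77), which delivers copper to complex IV. Of 13 citric acid cycle genes 12 rose with AT7519 (median 0.59), and of 17 tested import genes 10 rose and TIMM9 fell (-0.90). When OSMI-2 was added to AT7519, 5 of 13 citric acid cycle genes (median -0.18) and 12 of 17 import genes (median -0.39) fell and 0 rose. Mitochondrial ribosomal protein genes rose in 59 of 76 cases with AT7519 (median 0.47) and fell in 48 of 76 when OSMI-2 was added to it (median -0.34). Cytosolic ribosomal protein genes, another set of abundant housekeeping mRNAs, rose in 82 of 84 cases with AT7519 (median 0.82), and 1 of 84 fell with the addition (median -0.07). With OSMI-2 against control, 4 of 43 assembly factor, 2 of 13 citric acid cycle and 6 of 17 import genes fell (medians -0.19, -0.22 and -0.30). Falls numbered 16 of 76 for mitochondrial and 3 of 84 for cytosolic ribosomal protein genes (medians -0.28 and -0.13), against 11 of 74 members (-0.18). In each of these lists 0 genes rose with OSMI-2. For each of these lists the median with AT7519 turned below 0 when scaled to equal mitochondrial mRNAs, as for the members. On the scales of equal totals and equal upper quartiles the cytosolic ribosomal protein median with the addition turned to 0.01 and 0.03.

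Genes for regulators were mostly lower. These act on nuclear genes of mitochondrial proteins (NRF1, GABP, the PGC-1 family) or on mitochondrial DNA (TFAM, POLRMT, TFB2M, TEFM). Of 14 tested genes for transcriptional regulators of mitochondrial genes, 8 fell with AT7519, 2 rose and 4 were not called, with a median of -0.45 that stayed below 0 on all 5 scales. NRF1 had 1434 and 1485 counts in the controls and 463 and 575 with AT7519, a fall of 2.83-fold (-1.50, SE 0.14, adjusted p = 1.06e-06). GABPB1, a GABP subunit gene, had 2295 and 2306 counts in the controls and 1023 and 931 with AT7519, a fall of 2.35-fold. PPARGC1B, a coactivator gene of the PGC-1 family, fell by 1.41 on the log2 scale. The genes that rose were TFAM, which packages mitochondrial DNA (0.38), and POLRMT (0.26). Both rises are those of the deposited scale. Equal totals moved the median of all tested genes from -0.004 to -0.34, and equal mitochondrial mRNAs moved it to -0.91. With OSMI-2 against control limma called 0 of 14, and the smallest adjusted p was 0.0528, for TFB2M (-0.34). Of the 14, 7 had an unadjusted p below 0.05 and 12 had values below 0. Over all 19393 tested genes 3450 had such a p and 10281 had values below 0. When OSMI-2 was added to AT7519, 6 of 14 fell and 0 rose, namely PPARGC1B (-0.65), TFB2M (-0.48), TEFM (-0.44), GABPB1 (-0.41), YY1 (-0.32) and TFAM (-0.24).

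**Figure D5:**
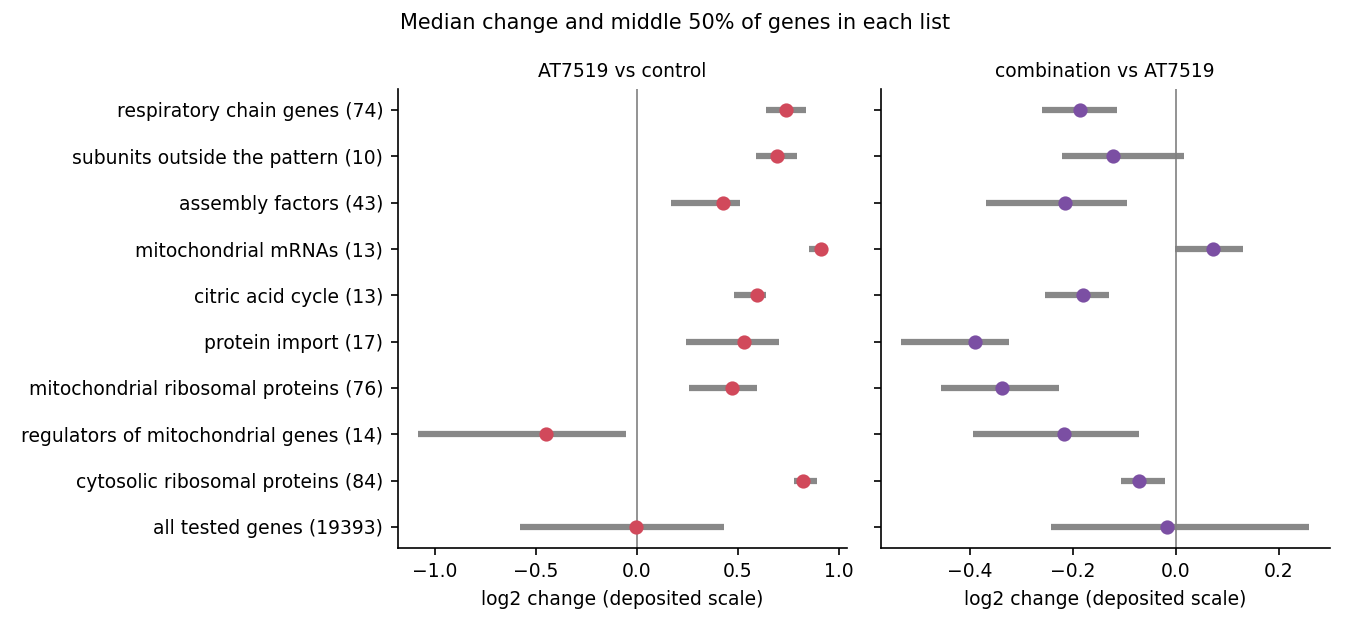
Median log2 change (points) and middle 50% of genes (bars) of each list, with the number of tested genes in brackets, for AT7519 vs control (left) and combination vs AT7519 (right) on the deposited scale. The members' median lies at 0.74 and -0.19, the regulators' at -0.45 and -0.22; scaled to equal mitochondrial mRNAs the members' median is -0.18 on the left.

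Members were shorter and had fewer exons than the tested genes, and shorter members had larger median rises. By GENCODE 29 the members span a median of 12.6 kb with 4 exons, against 33.2 kb and 9 exons for 13310 tested protein-coding genes. With AT7519, members under 5 kb had a median change of 0.83 (11 genes), those of 5 to 10 kb 0.74 (21 genes), those of 10 to 20 kb 0.73 (20 genes) and those of 20 to 50 kb 0.64 (18 genes). Tested protein-coding genes in the same ranges had medians of 0.24, 0.20, 0.15 and 0.03, below the members' in each. The 4 members of 50 kb or more had 0.63, against -0.17 for tested genes. These ranges are not matched on level, as median means were 13690 counts for members and 2444 for tested protein-coding genes. Across the 13310 genes the change correlated with log10 mean level (r = 0.325, rho = 0.361) and with log10 span (r = -0.105, rho = -0.198). Across the members the level gave r = -0.348 and rho = -0.0825. The part of level in the gap was not tested. Across the 74 members the change and log10 span correlated with r = -0.134 and rho = -0.373, and across the 68 members with a mean of at least 3000 with r = -0.409 and rho = -0.477. Log10 exon number and the change gave r = 0.0172 and rho = -0.181 across the 74 members, and r = -0.18 and rho = -0.303 across those 68. These are correlations across genes of the same 4 libraries and are given as a description.

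Promoter motifs were searched on both strands of the 300-base windows. The ETS motif was in 28.8% of the 73 member promoters, against 10.3% of all 35116 promoters and 16.0% of the 16177 promoters of tested genes. The YY1 motif was in 13.7% (1.75% and 3.23%), the NRF1 motif in 5.48% (1.24% and 1.89%) and the THAP11-HCFC1 element in 6.85% (1.75% and 3.13%). TATAAA was in 8.22% (11.5% and 6.64%) and the GC box GGGCGG in 61.6% (45.0% and 64.0%). A match in these letters is a description of the window and no measure of binding, and windows of a gene can overlap.

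The 4 members with the NRF1 motif, ATP5C1, NDUFA8, NDUFB4 and SDHD, rose with AT7519 by 0.46 to 0.60, below the members' median. All 4 were called lower on the deposited scale when OSMI-2 was added to AT7519, by 0.28 to 0.32. Of these, NDUFA8 and SDHD were still called on equal totals, and SDHD alone on equal upper quartiles. Of all 74 members 22 fell with that addition, as did 12.5% of tested genes. Among genes at least as abundant as the lowest member the share was 21.6%. The 20 members with the ETS motif had medians of 0.78 with AT7519 and -0.16 with that addition, where 5 fell, and the 9 with the YY1 motif had medians of 0.69 and -0.25, where 4 fell. For the 5 with the THAP11-HCFC1 element, ATP5O, COX7B, COX7C, NDUFB10 and UQCR10, the medians were 0.70 and -0.24, and 3 fell, with COX7C not among them. The 26 members with a promoter but none of the 4 motifs had medians of 0.73 and -0.16, and 5 fell. These groups are small, were read after the changes were known and were not tested against each other.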

How the data were processed

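RNA of LNCaP cells was made into strand-specific TruSeq libraries, per the labels' protocols. The deposited signal of a gene in a library is its read count after division by a library size factor. STAR, HTSeq, DESeq2 and the builds hg19 and GRCh37 are named in the submitters' processing notes; the sources used here give no versions, annotation or strand setting of counting. All values were whole reads (within 0.01) once divided by each library's value of 1 read, which gave 60152710 to 154367238 reads per library, and 3 reads correspond to 1.76 to 5.47 normalised counts. Another 28 lines without a gene name were dropped.

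The 19393 genes whose mean reached 10 normalised counts were fitted on log2(value + 1) with limma 3.58.1 in R 4.3.3, with a mean-variance trend and 4 group means over 8 libraries (4 residual and 10.07 prior degrees of freedom). Benjamini-Hochberg adjustment ran over all tested genes of a comparison, and genes were called at adjusted p below 0.05. Fold changes are on the log2(value + 1) scale. The pipeline was tested on simulated data. Alternatives were edgeR 4.0.16 and DESeq2 1.42.0 on the recovered reads, other scales, pseudocounts and filters, the replicate block and leaving out each library. Intervals of shares cover counting error only and were not printed.

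The members and all lists were chosen with earlier results of these data known. Named genes were a fixed set of members, the extremes of each complex and comparison, members called against the majority, and up to 2 called genes per direction of each other list; other genes named were chosen after their values were seen. The values of 1 member are not reported here singly, and it stays in all counts and medians. Spans, exon numbers and overlaps came from GENCODE 29 by symbol, with no coordinates used, and promoters from RefSeq GRCh38.p14; the 13 members without an entry were left out of the motif search.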

Additional observations from a re-analysis of the deposited data

How the results depend on the processing

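The calls with AT7519 against control kept their counts, 73 higher and 1 lower, under every alternative but the scales of equal totals (66 higher) and of equal mitochondrial mRNAs. On the latter the counts were 3 higher and 22 lower with AT7519, 2 and 55 for the combination against control, 2 and 11 for the combination against OSMI-2, and 22 lower for OSMI-2 against control. The medians there were -0.18, -0.44, -0.11 and -0.31, with -0.25 for the combination against AT7519 and 0.057 for the interaction. Among the named genes, the changes that turned with AT7519 were those of ATP5A1 (-0.26), ATP5B (-0.21), ATP5C1 (-0.31), ATP5E (-0.074), ATP5G1 (-0.13), ATP5G2 (-0.31), ATP5G3 (-0.18), COX4I1 (-0.042), COX5A (-0.15), COX5B (-0.086), COX6C (-0.11), COX7C (-0.10), NDUFA4 (-0.023), NDUFS1 (-0.52), NDUFS8 (-0.19), NDUFV1 (-0.070), SDHA (-0.32), SDHB (-0.30), SDHC (-0.32), SDHD (-0.45), UQCRC1 (-0.26), UQCRC2 (-0.36), UQCRFS1 (-0.23) and UQCRQ (-0.014). For the combination against control they were those of ATP5D (-0.21), ATP5G3 (-0.68), COX5A (-0.45), COX6A1 (-0.077), NDUFA8 (-0.84), NDUFB10 (-0.84), SDHC (-0.40), SDHD (-0.83), UQCRFS1 (-0.72) and UQCRQ (-0.21), and against OSMI-2 those of ATP5G2 (-0.29), COX5A (-0.14), NDUFA13 (-0.45), SDHC (-0.11), SDHD (-0.50) and UQCRC2 (-0.26). That scale sets the mitochondrial mRNAs, which rose on the deposited scale, to no change by construction.

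On equal totals and equal upper quartiles the medians were 0.39 and 0.78 with AT7519, 0.28 and 0.68 for the combination against control, 0.41 and 0.83 against OSMI-2, -0.10 and -0.088 against AT7519, and -0.11 and -0.13 for OSMI-2 against control; the interaction's was 0.034 on equal upper quartiles. With TMM and edgeR the medians were 0.71 for AT7519 in each, -0.154 and -0.153 for the combination against AT7519, and 0.024 and 0.023 for the interaction. Lower calls with OSMI-2 against control numbered 2 without a filter, 2 on equal totals, 2 on equal upper quartiles, 0 in limma without a trend and 22 in DESeq2. For the combination against AT7519 they numbered 12 without a filter, 6, 5 and 0 in the same settings, and 31 in DESeq2.

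Leaving out each library in turn gave 0 to 15 lower calls with OSMI-2 against control (medians -0.21 to -0.15) and 4 to 19 for the combination against AT7519 (-0.19 to -0.17). It gave 73 higher calls with AT7519 (0.71 to 0.75), 66 to 70 for the combination against control (0.54 to 0.57), 71 to 73 against OSMI-2 (0.73 to 0.78) and 0 for the interaction (-0.038 to 0.017). In these fits the lone sample is assumed to vary like the other groups. With the replicate number as a block, 14 members were lower with OSMI-2 against control, 24 for the combination against AT7519 and 73 higher against OSMI-2, where NDUFA13 was called (adjusted p = 0.0156); the labels pair nothing, and the correlations between groups of replicate differences were 0.021 to 0.123.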
